A study of Mus musculus with 4 samples.

Results

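Interferon-stimulated genes are the genes that cells switch on when they sense an interferon. A list of 37 of them was followed in mouse colony-forming cells, taken as the probe sets that the platform annotation pairs with each symbol. Of the 37, 35 had a probe set of their own, and 36 probe sets in all mapped to them, out of 19938 named genes and 35556 probe sets on the array. Isg15 was measured only by a probe set shared with another gene, and Ifi44 had no probe set with its symbol, so neither gets a value here.

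RNA came from colonies grown in methylcellulose with serum, stem cell factor, GM-CSF and the interleukins IL-3 and IL-6. The founding cells were C57BL/6 long-term or short-term haematopoietic stem cells (LT-HSC or ST-HSC), which repopulate a transplanted host for life or only for a limited period. Before plating, the cells received CreER, a Cre recombinase that works only once an oestrogen receptor ligand is added, or a mock transduction. The 4 groups, with 1 array each, were LT-HSC CreER, LT-HSC mock, ST-HSC CreER and ST-HSC mock. The series concerns MLL-ENL, a fusion protein of leukaemia, in a form that can be switched on. The sources used here do not say whether each group carried that allele, whether and how CreER was activated, how old the animals were or whether cells were pooled. The design text compared CreER with mock in each population, and the populations with each other in each transduction, as a first screen for genes of leukaemic transformation.

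Type I and type III interferons signal through paired receptors and the kinases JAK1 and TYK2 to a complex that holds STAT2 and IRF9 and binds a DNA element known as the interferon-stimulated response element (ISRE). Interferon gamma acts on another element, the gamma-activated site (GAS). Many target genes encode antiviral proteins, others sense viral nucleic acids, cut peptides for MHC class I, or damp the response, and in haematopoietic stem cells interferon is known to drive entry into division.

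A level below is the deposited log2 value of a gene on an array, and a difference is one level minus another. The signal floor of an array, the median of its named probe sets, lay between 8.07 and 8.13. Of the 35 measured members, 21 were above it on all 4 arrays, 6 on 1 to 3 arrays and 8 on none. Of 7 lymphocyte markers, none was above the floor on any array. All 10 neutrophil markers were above it on all 4 arrays, as were 9 of 10 monocyte and macrophage markers. Of 8 stem cell markers, which were chosen after the data were seen, Procr and Thy1 were above the floor on all 4 arrays, Hlf on 2 of them, and Slamf1, Fgd5, Mecom, Tek and Hoxb5 on none. In bulk RNA, fewer cells of a type and less RNA per cell cannot be told apart.

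**Figure D1:**
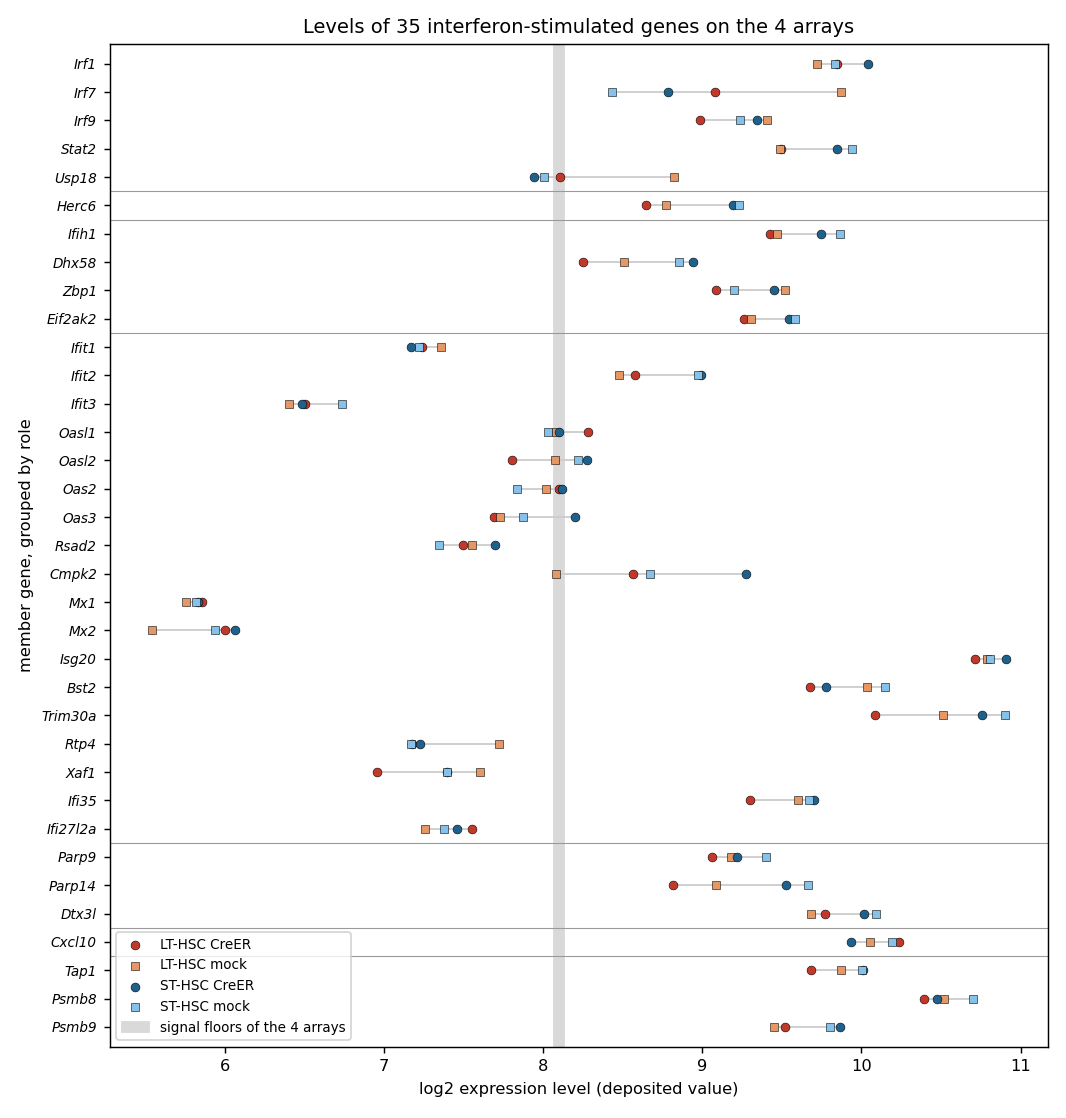
Levels of the 35 measured members, as deposited log2 values on the horizontal axis, with 1 point per array. Genes run down the page by role, from transducers at the top to peptide processing at the bottom, and the grey band spans the signal floors of the 4 arrays (8.07 to 8.13). All 4 points of Ifit1, Ifit3, Rsad2, Mx1, Mx2, Rtp4, Xaf1 and Ifi27l2a lie left of the band, and Irf7 has the widest spread among members right of it.

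Promoter sequences from RefSeq (GRCm38.p6) were at hand for 27 of the 37 members and are shown because the letters of both elements are visible in them. The 250 bases before each start were searched on both strands for the ISRE core (GAAA, then 2 bases of any kind, then GAAA) and for the GAS core (TTCNNNGAA), which reads the same on both strands. The ISRE core stood before 9 of the 27 members (33.3%), against 3.46% of the 27025 genes in the table. The GAS core stood before 6 of the 27 (22.2%), against 8.13% of all genes. The stretches below run 5′ to 3′ on the gene's strand, end at the base before the start or earlier, and carry the ISRE core in capitals, also where it lies on the other strand (TTTC, 2 bases, TTTC).
Trim30a: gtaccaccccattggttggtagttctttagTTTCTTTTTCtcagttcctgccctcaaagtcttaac
Bst2: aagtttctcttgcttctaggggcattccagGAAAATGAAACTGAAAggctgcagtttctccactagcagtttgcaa
Stat2: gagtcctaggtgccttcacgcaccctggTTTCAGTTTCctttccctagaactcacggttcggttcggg
Cxcl10: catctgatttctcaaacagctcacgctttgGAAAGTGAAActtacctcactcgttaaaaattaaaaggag
Oas3: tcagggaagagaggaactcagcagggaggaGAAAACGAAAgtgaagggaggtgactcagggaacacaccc
Rsad2: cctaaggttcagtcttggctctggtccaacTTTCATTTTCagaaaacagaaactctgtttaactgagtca
Ifit1: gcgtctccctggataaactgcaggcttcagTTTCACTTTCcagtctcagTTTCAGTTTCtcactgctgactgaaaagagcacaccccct
Ifit3: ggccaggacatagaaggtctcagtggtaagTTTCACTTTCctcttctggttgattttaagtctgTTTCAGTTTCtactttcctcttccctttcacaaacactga

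These stretches lie at chr7:104465194-104465259 (Trim30a, minus strand), chr8:71537557-71537632 (Bst2, minus), chr10:128270248-128270315 (Stat2, plus), chr5:92349063-92349132 (Cxcl10, minus), chr5:120777695-120777764 (Oas3, minus), chr12:26456533-26456602 (Rsad2, minus), chr19:34640755-34640843 (Ifit1, plus) and chr19:34583343-34583446 (Ifit3, plus). Ifit1 and Ifit3 each hold 2 separate matches. Bst2 holds 2 matches that overlap each other, and 1 of them also overlaps a GAS core. The ninth member with a match was Isg15. Of the members with a promoter in the table, 3 of 4 near background held an ISRE core (Ifit1, Ifit3 and Rsad2), 1 of 4 above the floor on 1 to 3 arrays (Oas3), and 4 of 17 above it on all 4 arrays (Stat2, Bst2, Trim30a and Cxcl10). All 6 members with a GAS core (Irf1, Eif2ak2, Ifit2, Isg20, Bst2 and Psmb8) were above the floor on all 4 arrays. That class held 17 of the measured members with a promoter, against 4 in each other class. These counts are too small to compare the 2 elements. A match is a description of the letters, not of binding, and its absence says nothing of the factor.

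The last 120 bases before the start of Irf7 (chr7:141266425-141266544, minus strand) and Cmpk2 (chr12:26469095-26469214, plus strand), the members with the widest ranges over the arrays among those past the floor, are shown for comparison. Neither gene had an ISRE or GAS core in its 250 bases.
Irf7: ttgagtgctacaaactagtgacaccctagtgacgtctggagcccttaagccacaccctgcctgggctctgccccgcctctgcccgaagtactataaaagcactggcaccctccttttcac
Cmpk2: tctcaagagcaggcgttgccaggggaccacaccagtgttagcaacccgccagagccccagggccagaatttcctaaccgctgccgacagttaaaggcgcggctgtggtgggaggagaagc

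The transducers and regulators held the member that differed most between arrays. Irf7, the transcription factor that amplifies type I interferon production, stood at 9.08 on LT-HSC CreER, 9.87 on LT-HSC mock, 8.78 on ST-HSC CreER and 8.43 on ST-HSC mock. Both LT-HSC arrays were above both ST-HSC arrays, and Irf7 was the one member of the 21 above the floor everywhere with that order, which 23.6% of the 9350 genes above the floor on all 4 arrays shared. With mock it was higher by 1.44 in LT-HSC-derived cells, a 2.71-fold difference, and with CreER by 0.29.

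Usp18, which removes ISG15 from proteins and also blocks the type I receptor, was at 8.11 on LT-HSC CreER, 8.82 on LT-HSC mock, 7.94 on ST-HSC CreER and 8.01 on ST-HSC mock. It stood out on the LT-HSC mock array, the only one on which it was above the floor, so the size of its differences is uncertain. Irf9, the DNA-binding partner of STAT2, was also highest on LT-HSC mock, at 9.41, and lowest on LT-HSC CreER, at 8.99, with 9.35 on ST-HSC CreER and 9.24 on ST-HSC mock. Stat2, its partner, followed the populations instead, at 9.49 on LT-HSC CreER and 9.49 on LT-HSC mock, against 9.85 on ST-HSC CreER and 9.94 on ST-HSC mock. Irf1, an early interferon-induced activator with 2 probe sets, varied by 0.32 over the arrays. It was highest on ST-HSC CreER, at 10.04, and its other probe set lay under the floor on all 4 arrays.

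The role of the ubiquitin-like protein ISG15 and its machinery held 2 members, Isg15 and Herc6. Of these only Herc6, the main ligase for it in mice, could be measured. Herc6 was at 8.65 on LT-HSC CreER and 8.77 on LT-HSC mock, against 9.19 on ST-HSC CreER and 9.23 on ST-HSC mock. Both LT-HSC arrays thus lay below both ST-HSC arrays, as in 30.8% of the 9350 genes above the floor on all 4 arrays.

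The nucleic acid sensors were all above the floor on every array. Ifih1 encodes MDA5, a sensor of long double-stranded RNA, and stood at 9.43 and 9.47 on LT-HSC CreER and LT-HSC mock, against 9.74 and 9.86 on ST-HSC CreER and ST-HSC mock. Dhx58, which encodes the related regulator LGP2, was at 8.25 and 8.51 on the same LT-HSC arrays, against 8.94 and 8.85 on the same ST-HSC arrays. Eif2ak2, the kinase PKR that stops translation when it binds double-stranded RNA, was at 9.26 and 9.30, against 9.55 and 9.58. All 3 were thus lower on both LT-HSC arrays than on either ST-HSC array, as were 30.8% of genes above the floor everywhere. Zbp1, a sensor of Z-form nucleic acids that can start necroptosis, had another order, with 9.09 on LT-HSC CreER, 9.52 on LT-HSC mock, 9.45 on ST-HSC CreER and 9.20 on ST-HSC mock.

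Among the 18 measured antiviral effectors, 5 were above the floor on all 4 arrays, 5 on 1 to 3 arrays and 8 on none. Those on none were Ifit1 and Ifit3 of the RNA-binding IFIT family, Rsad2, which encodes viperin, the dynamin-like GTPase genes Mx1 and Mx2, Rtp4, Xaf1 and Ifi27l2a. Mx1 and Mx2 carry inactive alleles in most laboratory mouse strains, and their levels lay between 5.54 and 6.07. Differences of these 8 genes are not interpreted, although Rtp4 (7.72) and Xaf1 (7.60) had their highest level on LT-HSC mock.

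Cmpk2, a nucleotide kinase gene next to Rsad2, was at 8.57 on LT-HSC CreER and 8.08 on LT-HSC mock, against 9.28 on ST-HSC CreER and 8.67 on ST-HSC mock. It was lower in LT-HSC-derived cells in each transduction and higher with CreER in each population, and the LT-HSC mock value lay just under the floor. Trim30a, which encodes a restrainer of inflammatory signalling, was at 10.09 on LT-HSC CreER and 10.51 on LT-HSC mock, against 10.76 on ST-HSC CreER and 10.90 on ST-HSC mock. Ifit2 was at 8.58 and 8.48 on LT-HSC CreER and LT-HSC mock, against 8.99 and 8.97 on ST-HSC CreER and ST-HSC mock, while its relatives Ifit1 and Ifit3 were near background. Both Trim30a and Ifit2 kept the LT-HSC arrays below the ST-HSC arrays, as did 30.8% of genes above the floor everywhere.

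Bst2, which encodes tetherin, a membrane protein that holds budding virions at the cell surface, had a different order. It was at 9.68 on LT-HSC CreER and 9.78 on ST-HSC CreER, against 10.03 on LT-HSC mock and 10.15 on ST-HSC mock, so both CreER arrays lay below both mock arrays. Only 1 other of the 21 members above the floor everywhere, Psmb8, shared that order, and the share of all 9350 such genes with it was 16.1%, so 2 of 21 is not above the background. Ifi35 varied by 0.40 and was lowest on LT-HSC CreER, at 9.30, and the exonuclease gene Isg20 varied by 0.19. The oligoadenylate synthetase genes Oas2 and Oas3 and their relatives Oasl1 and Oasl2 straddled the floor, with levels between 7.69 and 8.28.

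Parp9 and Dtx3l encode a complex of an ADP-ribosyltransferase and a ubiquitin ligase, and Parp14 a larger ADP-ribosyltransferase. Parp14 was at 8.81 on LT-HSC CreER and 9.08 on LT-HSC mock, against 9.53 on ST-HSC CreER and 9.66 on ST-HSC mock. Dtx3l was at 9.77 and 9.68 on LT-HSC CreER and LT-HSC mock, against 10.02 and 10.09 on ST-HSC CreER and ST-HSC mock. Parp9 followed at 9.06 and 9.18, against 9.22 and 9.40. In all 3 genes the LT-HSC arrays lay below the ST-HSC arrays, as in 30.8% of genes above the floor everywhere.

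Cxcl10, a chemokine that draws T cells and NK cells, was at 10.24 on LT-HSC CreER, 10.05 on LT-HSC mock, 9.94 on ST-HSC CreER and 10.19 on ST-HSC mock, and thus followed neither factor. For MHC class I, Tap1 encodes a subunit of the peptide transporter, and Psmb8 and Psmb9 encode immunoproteasome subunits. Tap1 and Psmb9 are read in opposite directions from starts 226 bases apart in the RefSeq table. Psmb9 was at 9.52 and 9.45 on LT-HSC CreER and LT-HSC mock, against 9.86 and 9.80 on ST-HSC CreER and ST-HSC mock. Tap1 was at 9.68 on LT-HSC CreER, against 10.01 on ST-HSC CreER, a difference of -0.33, and its difference with mock was -0.13. Both neighbours were lower on the LT-HSC arrays, as were 30.8% of genes above the floor everywhere, and Psmb8 varied by 0.31.

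Across the members, lower levels in LT-HSC-derived cells were the most common pattern. Of the 21 members above the floor on all 4 arrays, 17 (81%) were lower in LT-HSC-derived than in ST-HSC-derived cells both with mock and with CreER, against 39.8% of the 9350 genes above the floor on all 4 arrays. In 14 of the 21 (66.7%) both LT-HSC arrays lay below both ST-HSC arrays, against 30.8% of those genes. The exceptions to the 17 were Irf7, higher in both comparisons, Irf9 and Zbp1, higher with mock and lower with CreER, and Cxcl10, lower with mock and higher with CreER. These shares describe 4 arrays and are not a test of the list.

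With CreER, 26 members passed the floor on the higher array, 23 of them were below 0, against 53.8% of all genes, and the median of LT-HSC minus ST-HSC was -0.33, against a median of -0.02 over 10189 genes. With mock, 24 members passed, 20 were below 0, against 54.9%, and the median was -0.20, against -0.03 over 10208 genes. Differences of -0.3 or beyond were found for 15 of the 26 with CreER, against 14.1% of all genes, and for 10 of the 24 with mock, against 13.2%. At least 2-fold differences were rare: 0 of 26 members with CreER, against 1.94% of all genes, and 1 of 24 with mock, Irf7, against 3.12%. Some members passed through the higher array alone: Oas2, Oas3 and Oasl2 with CreER, and Cmpk2, Oasl2 and Usp18 with mock. Of the members above the floor on both arrays, 20 of 23 were below 0 with CreER (median -0.33), against 54.3% of such genes. With mock 18 of 21 were below 0 (median -0.23), against 55.3%. Of these members, 13 with CreER and 9 with mock lay at -0.3 or beyond, against 13.6% and 12.6% of such genes. The 2-fold count is near the background, and the pattern consists of differences smaller than 2-fold.

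**Figure D2:**
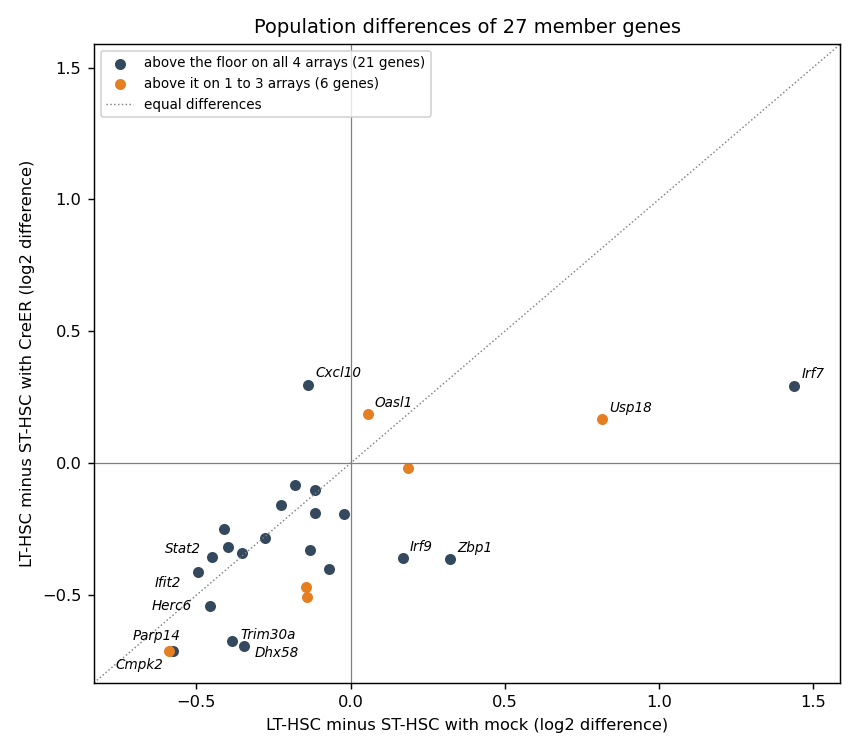
LT-HSC minus ST-HSC differences of the 27 members above the floor on at least 1 array, with mock on the horizontal axis and with CreER on the vertical axis (log2 units), 1 point per gene. Most points lie at the lower left, with Cmpk2 and Parp14 furthest down, while Irf7 (1.44 and 0.29) and Usp18 (0.82 and 0.17) lie to the right.

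An additive limma fit to the 4 arrays, with terms for population and transduction, pooled the spread over genes to give p-values. Cmpk2 fell by 0.65 ± 0.10 on the log2 scale in LT-HSC-derived cells (SE, adjusted p = 0.0268 in limma), and was lower in 2 of 2 comparisons. Parp14 fell by 0.65 ± 0.10 (adjusted p = 0.0278 in limma) and Herc6 by 0.50 ± 0.09 (adjusted p = 0.0465 in limma). These 3 of 27 members passed a Benjamini-Hochberg adjusted p of 0.05, all lower in LT-HSC-derived cells, against 2.49% of 10411 genes called lower and 6.27% called in either direction. A further 6 had an adjusted p between 0.05 and 0.1, and all 6 were lower in LT-HSC-derived cells. They were Ifit2 (-0.45, adjusted p = 0.0574 in limma), Trim30a (-0.53, 0.0607), Dhx58 (-0.52, 0.0716), Stat2 (-0.40, 0.0741), Ifih1 (-0.36, 0.0909) and Psmb9 (-0.35, 0.0932). Under 0.1 stood 1401 of the 10411 genes, a count that includes those under 0.05 and is not split by direction here. Of the 27 effects 22 were below 0, against 54.8% over all genes, and Irf7 was at 0.87 ± 0.27 in the fit (adjusted p = 0.126 in limma) and Usp18 at 0.49 ± 0.17 (0.154).

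Each gene's fit leaves 1 residual degree of freedom, and nothing says that the arrays stand for separate animals. The fit takes the CreER difference to be the same in both populations. Its residual is thus the disagreement of the CreER differences between the populations, not a spread between replicates. These p-values set each difference against that disagreement, pooled over genes, on these arrays only. In simulated data of this design, described below, false calls made up a larger share than the adjusted p allows. Fitted without the transduction term, 0 of the 27 members passed, with 200 of 10411 genes called, and the smallest adjusted p was 0.0813 in limma, for Herc6, which also missed 0.05 after quantile (0.0606) or cyclic loess (0.0704) normalization.

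**Figure D3:**
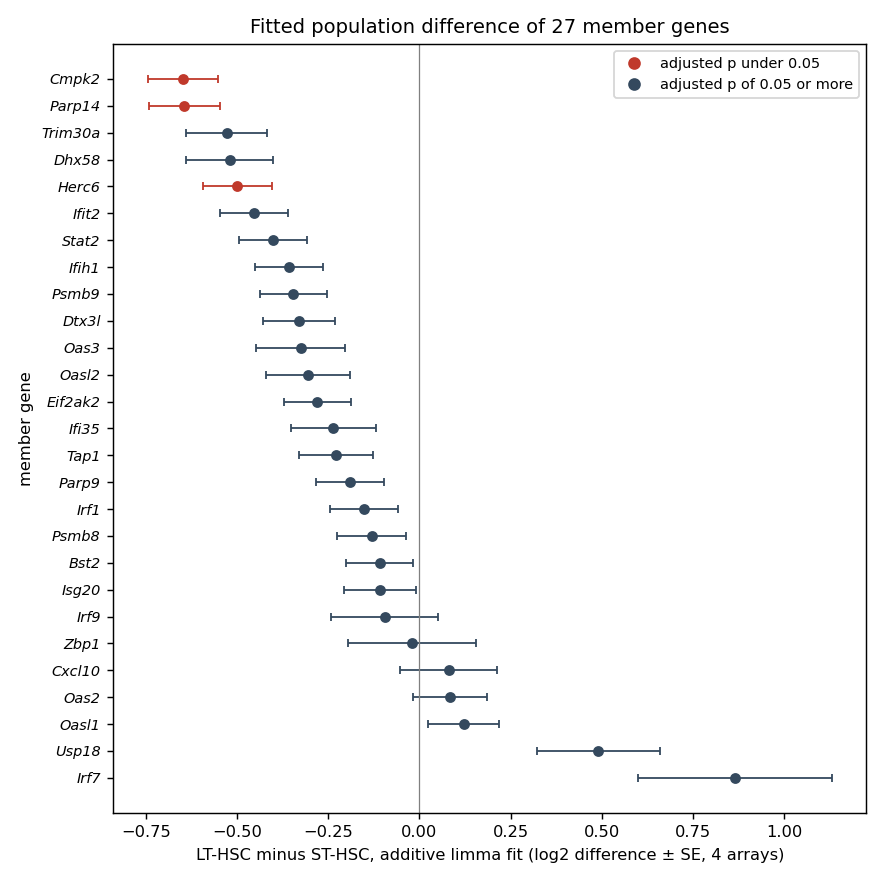
LT-HSC minus ST-HSC difference of 27 members in the additive limma fit, in log2 units on the horizontal axis, with bars of ± 1 SE, ordered from lowest to highest. Red marks the 3 genes with an adjusted p under 0.05 (Cmpk2, Parp14 and Herc6), and 22 of the 27 estimates lie below 0.

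Markers of the colonies' cell types differed between the same arrays. The 10 basophil and mast cell markers, taken as the sum of their linear signals, came to 38009 on LT-HSC CreER and 45500 on LT-HSC mock, against 14553 on ST-HSC CreER and 10031 on ST-HSC mock, and 7 of the 10 rose in LT-HSC-derived cells in the limma fit. Of those 7, 4 were above the floor on all 4 arrays, while Cd200r3 and Il4 passed it on the LT-HSC arrays alone and Ms4a2 on 3 arrays. The 10 monocyte and macrophage markers summed to 41133 and 54732 on the LT-HSC arrays, against 51666 and 58714 on the ST-HSC arrays. The fit called 0 of the 10. Of these markers, 8 of the 9 past the floor stood lower on LT-HSC CreER than on ST-HSC CreER, and 1 stood higher. Their median difference was -0.46, against -0.33 for the members and -0.02 over all genes. Between the mock arrays 6 of 10 were lower and 4 higher on LT-HSC, with a median of -0.04. The 10 dendritic cell and MHC class II markers summed to 4594 on LT-HSC CreER and were highest on LT-HSC mock, at 7311, against 5805 on ST-HSC CreER and 6365 on ST-HSC mock. Plasmacytoid dendritic cells are known for high Irf7, and of 8 measured markers of theirs, 6 were under the floor on all 4 arrays, Siglech among them at 6.96 to 7.14, while Cox6a2 was at 9.15 on LT-HSC CreER and 10.93 on LT-HSC mock, against 8.33 on ST-HSC CreER and 8.26 on ST-HSC mock. The remaining marker, Tcf4, was at 9.40 and 9.25 on LT-HSC CreER and LT-HSC mock, against 9.15 and 9.19 on ST-HSC CreER and ST-HSC mock. All 10 of 10 neutrophil markers stood lower on LT-HSC CreER than on ST-HSC CreER, with a median difference of -0.34. Between the mock arrays 7 of 10 were lower and 3 higher on LT-HSC, with a median of -0.15. In the fit 1 of 10 neutrophil markers fell in LT-HSC-derived cells, and 1 of 5 eosinophil and 3 of 4 megakaryocyte markers rose. Over all genes 2.49% were called lower and 3.78% higher, and the neutrophil and eosinophil calls are single genes. The part of cell composition in the interferon-stimulated genes was not tested.

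For CreER against mock, no member met the 2-fold rule in either population, against 0.875% of genes in cells from LT-HSC and 0.518% in cells from ST-HSC. In LT-HSC-derived cells 16 of 24 members past the floor were below 0, against 55.6% of all genes, with a median of -0.12, against -0.03 over all genes, and 6 lay at -0.3 or beyond, against 11.8% of all genes. They were Irf7 (-0.79), Usp18 (-0.72), Zbp1 (-0.43), Trim30a (-0.43), Irf9 (-0.42) and Bst2 (-0.36). Irf7, Usp18, Zbp1 and Irf9 had their highest level on the LT-HSC mock array, and that array also enters the comparison of the populations with mock. In ST-HSC-derived cells 11 of 26 were below 0, against 57.4% of all genes, with a median of 0.03, against -0.03 over all genes. Cmpk2 was highest there, at 0.61, followed by Irf7 (0.35) and Oas3 (0.33), and Bst2 was lowest, at -0.37. Cmpk2, Oasl1 and Usp18 passed through the higher array alone in LT-HSC-derived cells, and Oas2, Oas3 and Oasl1 in ST-HSC-derived cells. Of the members above the floor on both LT-HSC arrays, 15 of 21 were below 0 (median -0.13), against 56.0% of such genes. Of these members, 5 lay at -0.3 or beyond, against 11.0%. On both ST-HSC arrays 11 of 23 were below 0 (median 0.01), against 57.7%.

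In the additive fit 0 of 27 members and 0 of 10411 genes passed an adjusted p of 0.05 for CreER against mock in limma. At an unadjusted p under 0.05, 2 members were lower (Bst2 and Trim30a) and 1 was higher (Cmpk2), against 6.77% and 3.29% of all genes. Cmpk2 was at 0.55 (adjusted p = 0.316 in limma), higher in 2 of 2 populations, and Bst2 at -0.36 (adjusted p = 0.361 in limma), lower in 2 of 2. Lineage markers differed too, though none passed the fit. With CreER, 9 of 10 monocyte and macrophage markers were lower in each population. Of all genes, 55.6% were lower in cells from LT-HSC and 57.4% in cells from ST-HSC. Of the 10 markers, 7 lay at -0.3 or beyond in cells from LT-HSC, against 11.8% of all genes. In cells from ST-HSC 4 did, against 4.66%. Neutrophil markers were higher in 7 of 10 in cells from LT-HSC, against 44.4% of all genes. In cells from ST-HSC 10 of 10 were higher, against 42.6%. The part of these lineage markers in the members' values was not tested.

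**Figure D4:**
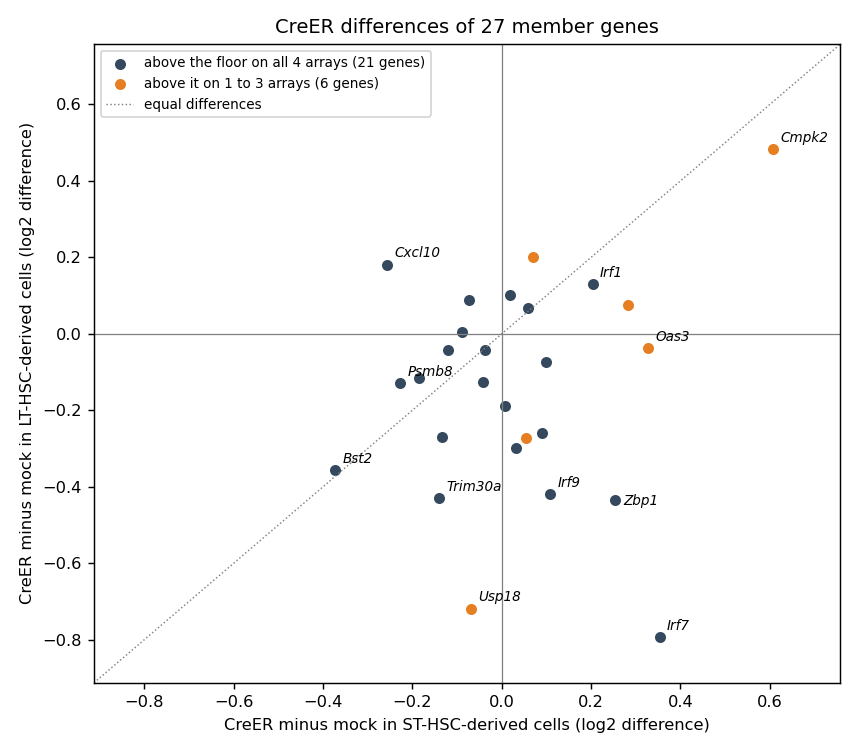
CreER minus mock differences of the 27 members above the floor on at least 1 array, in ST-HSC-derived cells on the horizontal axis and LT-HSC-derived cells on the vertical axis (log2 units), 1 point per gene. Cmpk2 (0.61 and 0.48) lies furthest to the upper right and Bst2 (-0.37 and -0.36) to the lower left, and Irf7 (0.35 and -0.79) lies at the lower right.

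The rest of the pathway was read from lists of genes upstream and downstream of the members. Of 16 measured interferon genes, 13 were under the floor on all 4 arrays, among them Ifnb1 at 6.41 to 6.63 and Ifng at 6.98 to 7.11. Ifna5, Ifnz and Ifnl2 were above it on all 4 arrays, with none called. The receptors and kinases were well above the floor: Ifnar2, a chain of the type I receptor, was at 12.06 and 12.23 on LT-HSC CreER and LT-HSC mock, against 12.18 and 12.16 on ST-HSC CreER and ST-HSC mock, and Ifngr1, a chain of the interferon gamma receptor, at 12.32 and 12.44, against 12.15 and 12.12. Of 14 measured receptor and signalling genes, 1 passed the limma fit for population, Irf5, a transcription factor of macrophages and dendritic cells. Over all genes 2.49% were called lower and 3.78% higher, so 1 of 14 is near the background, as is the 1 of 17 inhibitors given below. Irf5 fell by 0.59 ± 0.09 in LT-HSC-derived cells (adjusted p = 0.0310 in limma).

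Of 16 measured sensors and adaptors, 2 passed, both lower in LT-HSC-derived cells, against 2.49% of all genes called lower. Tlr7, an endosomal sensor of single-stranded RNA, fell by 0.72 ± 0.10 (adjusted p = 0.0220 in limma), and Mavs, the mitochondrial adaptor downstream of MDA5, fell by 0.54 ± 0.10 (0.0461). Tlr8 met the 2-fold rule with CreER, at 9.42 on LT-HSC CreER against 10.52 on ST-HSC CreER. Of 17 inhibitors of the pathway, 1 passed, in the other direction: Tnfaip3, the ubiquitin-editing enzyme A20, rose by 1.02 ± 0.19 (adjusted p = 0.0445 in limma). Socs1, which blocks JAK kinases, was at 9.74 on LT-HSC CreER, 10.26 on LT-HSC mock, 9.61 on ST-HSC CreER and 9.19 on ST-HSC mock, the same order of arrays as Irf7. It was higher by 1.06 in LT-HSC-derived cells with mock.

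Of 73 further measured interferon-stimulated genes, 51 were above the floor on at least 1 array. Of these, the limma fit called 6 lower and 1 higher in LT-HSC-derived cells, against 2.49% and 3.78% of all genes. Among the 7, 4 lay above the floor on all 4 arrays (Ifi203, Cd274, Trim12c and Cd69). Ifi203, a nuclear DNA-binding protein of the IFI200 family, fell by 0.94 ± 0.09 (0.0107). The checkpoint ligand gene Cd274 fell by 0.60 ± 0.09 (0.0305). Cd69, an activation marker of leukocytes, rose by 1.11 ± 0.09 (0.0076). The other 3 called lower passed the floor mainly where they were high, so no fold is given: Il15, a cytokine that sustains NK cells, was at 7.54 and 7.21 on LT-HSC CreER and LT-HSC mock, both under the floor, against 8.47 on each ST-HSC array, Slfn8 was above the floor on ST-HSC mock alone, and Trim34a on 3 arrays. With CreER, 41 of 49 of these genes past the floor were lower in LT-HSC-derived cells, against 53.8% of all genes. Their median was -0.21, against -0.02 over all genes. With mock 34 of 51 were lower, against 54.9%, and the median was -0.09, against -0.03. The 12 measured genes of MHC class I and the immunoproteasome, such as B2m (13.44 and 13.56 on LT-HSC CreER and LT-HSC mock, against 13.52 and 13.57 on ST-HSC CreER and ST-HSC mock), had none called and medians of -0.08 with CreER and 0.00 with mock.

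Some further genes met the 2-fold rule on single arrays. Slfn1 and Slfn4, myeloid Schlafen genes, and Ifit1bl2, a relative of Ifit1, were higher with CreER in ST-HSC-derived cells, by 1.65, 1.51 and 1.24. Trim12a, a relative of Trim30a, was at 7.80 on LT-HSC CreER, which is under the floor, 9.10 on LT-HSC mock, 8.81 on ST-HSC CreER and 8.32 on ST-HSC mock.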

How the data were processed

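RNA from 4 groups of mouse colony-forming cells was hybridised to Affymetrix whole-transcript arrays, 1 array each. The deposited table holds log2 values per probe set; that unit was inferred, since they run from 2.21 to 14.82. They were made with Affymetrix Expression Console, per the submitters' processing notes, whose version and method the sources used here do not name. Precision is limited by the number of arrays, and differences near background may be compressed. Of 35556 probe sets, 21789 had 1 gene symbol, 1621 several and 12146 none here. Only those with 1 symbol were named, and for a gene with several the brightest on average was used. Genes were counted by a size rule, at least 2-fold with the higher array above its floor. An additive model was fitted with limma 3.58.1 in R 4.3.3 to 10411 genes above the floor on at least 1 array, with 4.27 prior degrees of freedom. On simulated data of this design, with CreER changes of 1 to 4 log2 units, it recovered nearly all changed genes. False calls there made up a larger share than the adjusted p allows. Changes under 1 log2 unit, the size of nearly all member differences, were not simulated, so recovery at that size is unknown. Members, lists and named genes (all members, and list genes that met the size rule or were among the 4 highest of their list; those named for a limma call or as examples were chosen after their values were seen) were chosen with earlier results of these data known. Promoters came from RefSeq.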

Additional observations from a re-analysis of the deposited data

Results flagged for a closer look

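Genes whose CreER minus mock differences had opposite directions in the populations, with both at least 0.3 from 0, were singled out among the members, the pathway lists and the cell type markers. Genes of the lists and markers also had to meet the 2-fold rule. Irf7 differed by -0.79 in cells from LT-HSC and by 0.35 in cells from ST-HSC, a gap of -1.15. Socs1 differed by -0.52 and 0.42, a gap of -0.94. Trim12a differed by -1.30 and 0.49, a gap of -1.79, with the LT-HSC CreER level under the floor. Among basophil and mast cell markers, Fcer1a differed by -1.30 and 1.01 (a gap of -2.32), Cpa3 by -0.45 and 1.17 (-1.62) and Ms4a2 by -0.48 and 0.71 (-1.19), and the neutrophil marker Retnlg by -0.79 and 1.57 (-2.35). Fcer1a and Ms4a2 were under the floor on ST-HSC mock. With 1 array per group these gaps were not tested.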

How the results depend on the processing

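The settings tried were quantile, cyclic loess and median centring, no floor, floors at the 75th percentile or at the 95th percentile of olfactory receptor genes, 1.5-fold and 3-fold thresholds, the mean of all probe sets, a trend in the prior variance, an adjusted p of 0.1 and a fit with 1 term. Under the 3 normalizations 20 of 24 members stayed below 0 for LT-HSC minus ST-HSC with mock and 23 of 26 with CreER. With the floor at the 75th percentile 8 members passed it instead of 27, the ST-HSC median of CreER minus mock was -0.11, the median of LT-HSC minus ST-HSC with CreER was -0.19, and 0 members met the 2-fold rule for LT-HSC minus ST-HSC with mock. That count was also 0 at 3-fold and 3 at 1.5-fold. At 1.5-fold the counts were 2 for CreER minus mock in LT-HSC-derived cells, 1 in ST-HSC-derived cells and 4 for LT-HSC minus ST-HSC with CreER. The 3 members called for population became 0 with the floor at the 75th percentile, where Cmpk2, Parp14 and Herc6 were not among the genes tested, 0 with 1 term, 5 with the olfactory floor and 9 at an adjusted p of 0.1. Cmpk2 and Parp14 passed in all settings in which they were tested but the fit with 1 term, with adjusted p of 0.0148 to 0.0487 in limma; Herc6 missed 0.05 with quantile or loess normalization, the mean of probe sets and 1 term. Over all genes the population calls were 653, with 259 lower and 394 higher; centring on medians gave 339 lower and 325 higher. They numbered 368 with loess, 186 with the floor at the 75th percentile, 200 with 1 term and 1401 at an adjusted p of 0.1. By the size rule 89, 52, 319 and 198 genes were counted for CreER minus mock in cells from LT-HSC and from ST-HSC and for LT-HSC minus ST-HSC with mock and with CreER, 417, 200, 825 and 697 at 1.5-fold, and 12, 7, 143 and 67 at 3-fold. With the floor at the 75th percentile they were 53, 35, 169 and 93. For CreER against mock 0 genes passed in every setting run, and the smallest adjusted p of a member was 0.215 to 0.9997 in limma. No paired analysis was possible because the labels give no replicate numbers and each group has 1 array.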
